A study of Mus musculus with 25 samples.

Results

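Testes of CNP transgenic mice were compared with wild-type testes over whole libraries. The comparison took every library of mechanically dissociated C57BL/6 testis of these genotypes that was sequenced on a HiSeq, which gave 2 CNP and 8 wild-type (WT) libraries, 10 of the 25 samples of the series. The library was the replicate, and the counts of all its barcodes were summed. Single-cell suspensions of whole testis had been profiled by Drop-seq, in which cells share droplets with barcoded beads and transcripts are read at their 3′ end, with a molecular tag (UMI) that keeps copies of 1 molecule from being counted again. The study used mutant strains with defects of spermatogenesis, and CNP was the one in which the cause of infertility was not known.

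The CNP mice carried the CNP eGFP BAC TRAP transgene on the C57BL/6 background and were 2 months and 14 days old (replicate 1) and 2 months and 16 days old (replicate 2). The wild-type mice, replicates 4 to 11, were 3 months and 1 day to 9 months and 14 days old. All were male. The ages are those of the labels, and the study's own list of libraries gives the CNP mice as younger. It also gives the larger number of barcodes to the other CNP library than the files do, so which CNP library is which animal is uncertain. Wild-type and mutant libraries came from different experimental batches, so genotype, batch and age cannot be told apart here, and p-values measure the spread between libraries only.

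TRAP transgenes place a ribosomal protein, L10a, fused to the green fluorescent protein EGFP under the promoter of a chosen gene, so that ribosomes of the cells that use this promoter can be pulled down. The Cnp gene encodes a myelin enzyme and its promoter is used for oligodendrocytes, the glia that wrap axons. A bacterial artificial chromosome (BAC) carries a long piece of genomic DNA around the gene of interest, which can hold neighbouring genes. In the seminiferous tubules of the testis, spermatogonia divide and enter meiosis as spermatocytes, the haploid products are round spermatids, and these elongate into sperm while protamines replace the histones and the tail is built.

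Sequences from 3 stretches of the Cnp neighbourhood are shown because Nkiras2, Ttc25 and Dnajc7, which rose, lie there. Each is the 250 bases before the annotated start of transcription (RefSeq, GRCm38.p6), written 5′ to 3′ on the strand of the gene. Capitals mark TGACGT or its reverse complement ACGTCA, a 6-base part of the cyclic AMP response element, which the spermatid activator CREM binds.

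Cnp, chr11:100574689-100574938, plus strand: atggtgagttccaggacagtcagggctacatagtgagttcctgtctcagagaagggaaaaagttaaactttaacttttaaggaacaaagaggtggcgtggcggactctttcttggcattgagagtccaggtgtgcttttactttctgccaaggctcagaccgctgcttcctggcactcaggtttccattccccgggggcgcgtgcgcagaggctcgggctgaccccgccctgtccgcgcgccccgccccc

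Dnajc7, chr11:100619628-100619877, minus strand: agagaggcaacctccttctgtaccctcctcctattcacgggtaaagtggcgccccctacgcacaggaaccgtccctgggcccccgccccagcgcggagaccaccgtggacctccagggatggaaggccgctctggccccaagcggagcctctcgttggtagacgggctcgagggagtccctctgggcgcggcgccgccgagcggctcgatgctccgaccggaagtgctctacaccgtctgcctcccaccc

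Nkiras2, chr11:100622705-100622954, plus strand: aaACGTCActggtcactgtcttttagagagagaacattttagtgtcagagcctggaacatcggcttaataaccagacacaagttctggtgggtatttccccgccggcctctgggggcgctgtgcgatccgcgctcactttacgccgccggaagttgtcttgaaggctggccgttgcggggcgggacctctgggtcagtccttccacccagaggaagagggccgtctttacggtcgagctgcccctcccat

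The RefSeq table holds 7 such stretches for Cnp and its closest neighbours, those at another start of Dnajc7 and at the starts of Zfp385c included. TGACGT or its reverse complement was found in 1 of them, that of Nkiras2. The same bases were found in 6.47% of the 32851 stretches of the same length in the table, which holds 27025 genes. A match is a description of the letters and not a bound site. Ttc25 had no entry in the table.

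The CNP libraries were small and shallow. CNP replicate 1 held 775386 UMIs from 992 barcodes and CNP replicate 2 held 1054964 UMIs from 3389 barcodes, whereas the WT libraries held 2210512 to 3829176 UMIs from 2987 to 2996 barcodes each. The median barcode held 364 UMIs in CNP replicate 1, 192 in CNP replicate 2 and 401 to 723 in WT (means of 278 and 566, two-sided exact permutation test over 45 splits, p = 0.0222, the smallest it can give, adjusted p = 0.0296 over 4 values). In CNP replicate 2 only 45.6% of the barcodes had at least 200 UMIs and 50 genes, against 98.6% in CNP replicate 1 and 99.1% to 99.8% in WT. Every pair of libraries shared barcodes, 27 at most. Germ cell genes marked the tissue as testis in both groups, at the levels given below. Over the 2 CNP libraries, 3 UMIs correspond to 1.64 CPM, and intervals and limits based on UMIs cover counting error only.

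Of 19085 genes with at least 5 UMIs over the libraries, 890 (4.66%) passed an adjusted p of 0.05 (edgeR's quasi-likelihood test, Benjamini-Hochberg). Of these, 212 (1.11%) were higher and 678 (3.55%) lower in CNP. The 2 CNP libraries stood on one side of all 8 WT libraries for 194 of the genes called higher (1.02% of genes tested) and 565 of those called lower (2.96%). The median log2 fold change of all genes tested was -0.10, with TMM scaling factors of 1.09 for both CNP libraries and 0.96 to 1.02 for WT. Scaling by library totals alone moved this median to 0.05 and the calls to 547 higher (2.87%) and 417 lower (2.18%), so the share of genes called in either direction depended on the scaling. RLE size factors gave 288 higher (1.51%) and 577 lower (3.02%), and DESeq2 gave 339 (1.78%) and 672 (3.52%). Without CNP replicate 2 122 genes were called, 7 higher (0.0369%) and 115 lower (0.607%), and without CNP replicate 1 there were 1100, 377 higher (1.99%) and 723 lower (3.81%). Below, values are UMIs of a gene per 1000000 UMIs of the library (CPM), and fold changes are log2 values from the fit, after TMM scaling.

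Genes directly beside Cnp were higher in CNP. Nkiras2, an inhibitor of NF-kappaB signalling, had the smallest adjusted p of all genes higher in CNP. It stood at 395 and 362 CPM in the CNP libraries and at 106 to 143 (median 114) in WT, a log2 fold change of 1.54 ± 0.13 (SE, adjusted p = 2.53e-09 by edgeR). Ttc25, which encodes a docking factor for the dynein arms of cilia and flagella, stood at 613 and 692 CPM against 253 to 303 (median 279). Its log2 fold change was 1.07 ± 0.12 (edgeR, adjusted p = 5.74e-07). For both genes the groups did not overlap, with CNP higher (background 11.2%).

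Dnajc7, a co-chaperone of HSP70 and HSP90, was also higher, with 485 and 370 CPM in CNP and 160 to 231 (median 180) in WT. The log2 fold change was 1.03 ± 0.14 (edgeR, adjusted p = 2.69e-05). Zfp385c, a zinc finger gene, was near the floor of detection in WT (0 to 1.17 CPM) and stood at 10.3 and 2.84 CPM in CNP, with a log2 fold change of 3.11 ± 0.70 (edgeR, adjusted p = 0.00802). Cnp itself was at 7.74 and 2.84 CPM against 0 to 3.04 (median 1.82), and its log2 fold change of 1.41 ± 0.72 did not pass the test (edgeR, adjusted p = 0.329). The files have no row for EGFP.

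These 5 genes follow each other on chromosome 11 (GRCm38, chr11:100545607-100692455), a block of 147 kb. Of the 22 genes tested within 250 kb of Cnp, 4 were called higher (background 1.11%) and 1 lower (background 3.55%). The exception, Klhl10, a spermatid ubiquitin ligase adaptor on the far side of Klhl11 and Acly, stood at 303 and 315 CPM against 383 to 484. Its log2 fold change was -0.63 ± 0.14 (edgeR, adjusted p = 0.00689). The call was lost without CNP replicate 1, without CNP replicate 2 and with barcodes of at least 500 UMIs. The limits of the block were set from these values, so that 0 of the 17 tested genes outside it were called higher by its definition. Among the 9 of them with a WT median over 5 CPM, log2 fold changes ran from -0.76 to 0.40. The annotated span of Dnajc7 overlaps Cnp at one end and Nkiras2 at the other, and that of Zfp385c overlaps Nkiras2, so reads of these pairs cannot be told apart where the counting did not use the strand. Ttc25 overlaps no other gene listed in the window.

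**Figure D1:**
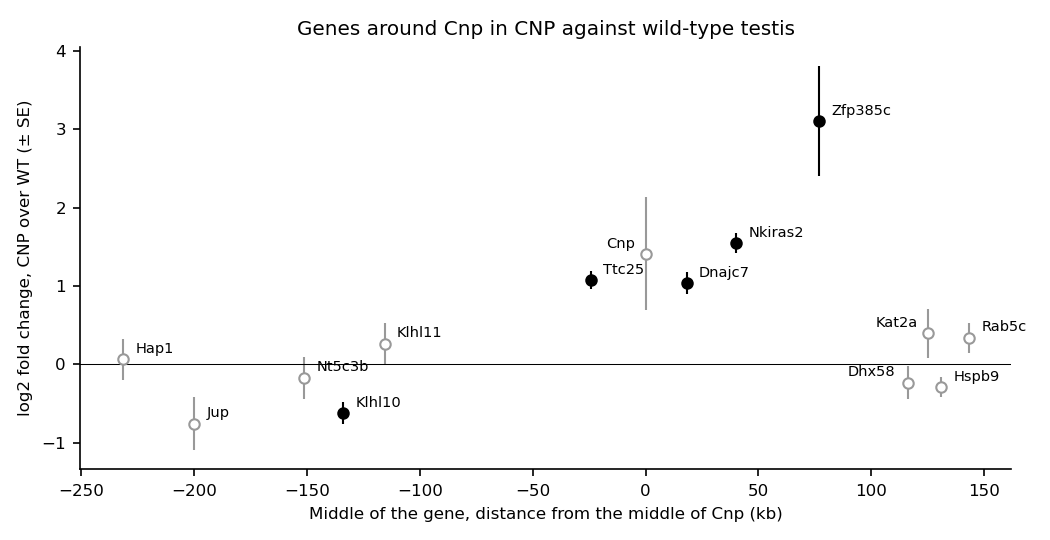
Log2 fold change of CNP over WT (y axis, points with bars of 1 standard error) for tested genes within 250 kb of Cnp that had a WT median over 5 CPM or belong to the block, against the distance in kb between the middle of the gene and the middle of Cnp. Filled points passed an adjusted p of 0.05. The 5 points between Ttc25 and Zfp385c lie above 1, and the points on both sides lie between -0.76 and 0.40.

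The 3 abundant genes of the block stayed called in all 26 alternative settings, including those without either CNP library, with adjusted p of at most 0.00488. Zfp385c was called in 18 of them and lost the call without CNP replicate 1 (adjusted p = 0.343). HiSeq libraries of 2 other mutant strains of the series, Cul4a and Mlh3, lay below both CNP libraries for these 3 genes. By the labels, the Cul4a mice were 1 month and 18 days and 1 month and 21 days old. The Mlh3 mice of these libraries were 2 months and 21 days to 8 months and 30 days old. The paper lists both strains on backgrounds other than that of the CNP mice. It describes meiotic arrest in Mlh3 testes and fewer post-meiotic cells in Cul4a testes. Here and below, these libraries thus differ from CNP and WT in age, background or cell mixture as well. Nkiras2 stood at 101 to 111 CPM in the 2 Cul4a libraries, at 54.8 to 155 in the 4 HiSeq libraries of Mlh3 testis and at 106 in WT replicate 3, which was run on a MiSeq. Cnp reached 16.6 CPM in an Mlh3 library, above both CNP libraries. Whether the block lies on the transgene was not tested, since its extent is not given in the sources used here.

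**Figure D2:**
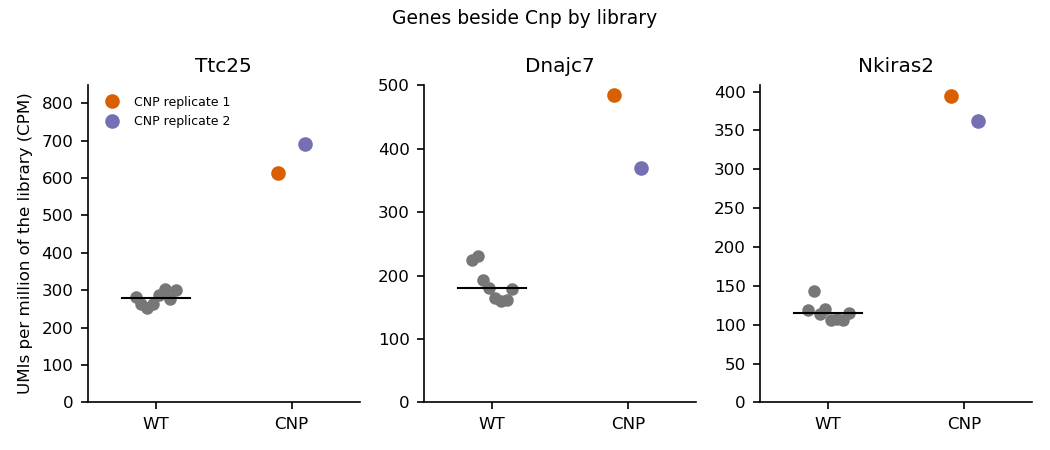
CPM of Ttc25, Dnajc7 and Nkiras2 in each library, with WT libraries in grey and their median as a line, CNP replicate 1 in orange and CNP replicate 2 in violet. In all 3 panels both CNP points lie above all 8 WT points.

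The gene of the tagged protein was lower. Rpl10a, the gene of the ribosomal protein used in TRAP constructs, fell to 1.29 and 0 CPM (1 UMI in all) from 5.80 to 11.9 CPM. The ratio of the pooled rates was 16.8-fold lower (95% interval 2.99 to 667, exact, counting error only), with an adjusted p of 0.00264 by edgeR. The call was lost without CNP replicate 2 (edgeR, adjusted p = 0.323), with barcodes of at least 500 UMIs and with WT replicate 3. Like the ribosomal protein genes below it has near-identical copies in the genome, here 4.

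Genes of the last step of spermatogenesis were lower in CNP testis. Of the 18 genes of the sperm tail and of sperm metabolism that were fixed as a list, 12 were lower (background 3.55%) and 0 higher, with a median log2 fold change of -0.80 against -0.10 over all genes. Of the 7 genes of chromatin condensation in elongating spermatids, 3 were lower and 0 higher, with a median of -0.69. That count was 1 with scaling by library totals or with the Cul4a and Mlh3 libraries in the fit, 5 without WT replicate 4 or without WT replicate 5, and 6 with no filter on low counts or with WT mice of 3 to 4 months only. In these whole-testis sums, fewer cells of a type and less RNA per cell cannot be told apart.

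Among the tail genes, Tssk3, a serine kinase of elongating spermatids, stood at 271 and 161 CPM against 348 to 428 (median 396) in WT, a log2 fold change of -1.03 ± 0.16 (edgeR, adjusted p = 0.000223). Smcp, a protein of the mitochondrial sheath, stood at 3983 and 2756 CPM against 4356 to 6283, with a log2 fold change of -0.79 ± 0.15 (edgeR, adjusted p = 0.00165). Spata18, a mitochondrial quality protein, stood at 440 and 188 CPM against 470 to 703 (log2 fold change -1.06 ± 0.21, edgeR, adjusted p = 0.00242). All 3 had both CNP libraries below every WT library (background 7.74%), and CNP replicate 2 well below CNP replicate 1.

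Oaz3, the antizyme of spermatids, fell by 0.89 on the log2 scale, from 1494 to 1978 CPM in WT to 1346 and 665 in CNP (edgeR, adjusted p = 0.0025). Gsg1, a germ cell gene, stood at 1591 and 919 CPM against 1724 to 2384, with a log2 fold change of -0.81 (edgeR, adjusted p = 0.0022). The abundant outer dense fibre gene Odf2 missed the threshold with 2729 and 1874 CPM against 2530 to 3203 (edgeR, adjusted p = 0.0607). The others that were lower were Akap4, Cabs1, Fscb, Gapdhs, Odf1, Pgk2 and Tssk6, and those not called with Odf2 were Abhd5, Akap3, Ldhal6b, Odf3 and Ropn1.

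Prm2, the protamine that is processed as it packs the sperm genome, had the smallest adjusted p of the chromatin list. It stood at 6460 and 3027 CPM in CNP and 8558 to 13289 (median 10613) in WT, a log2 fold change of -1.36 ± 0.20 (edgeR, adjusted p = 8.78e-05). Tnp2, a transition protein that precedes the protamines, stood at 3602 and 2646 CPM against 3142 to 5626 and passed with a log2 fold change of -0.69 (edgeR, adjusted p = 0.0185). H1fnt, a linker histone of spermatids, stood at 792 and 501 against 795 to 974 (log2 fold change -0.61, edgeR, adjusted p = 0.0107).

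Prm1 did not pass, at 6677 and 3215 CPM against 3553 to 8339 (edgeR, adjusted p = 0.178). WT replicates 4 and 5 were low for this list too. Its 7 genes summed to 21285 and 21916 CPM there, 30251 to 34905 in the other 6 WT libraries, 23036 in CNP replicate 1 and 12543 in CNP replicate 2, so CNP replicate 1 lay within the WT range of the sum.

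**Figure D3:**
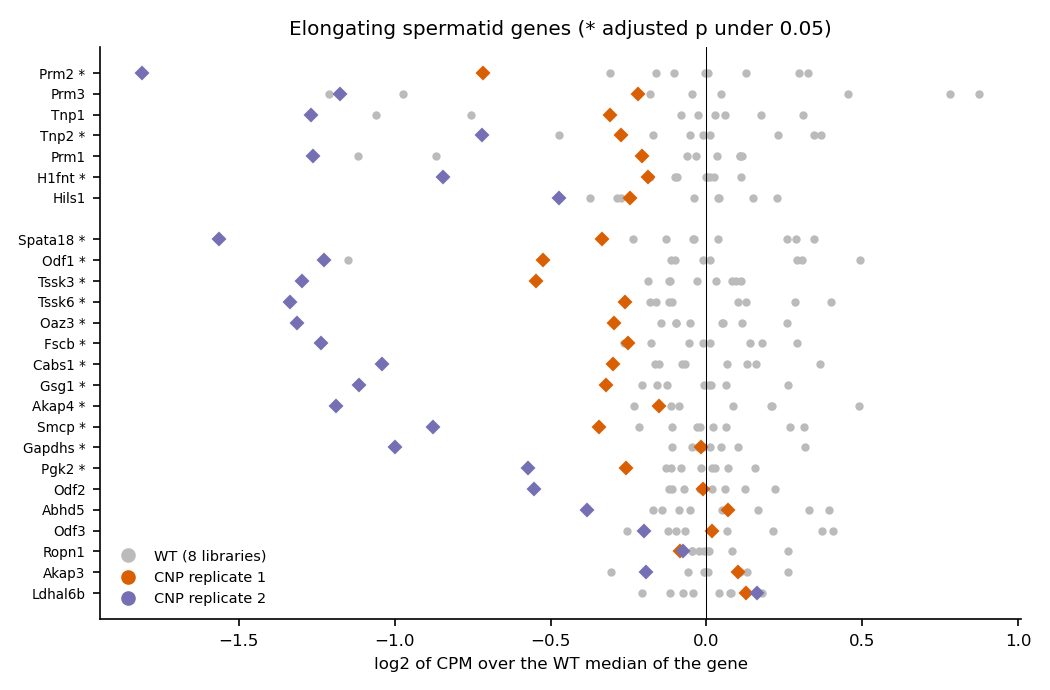
CPM of each elongating spermatid gene relative to its WT median, on a log2 axis, for the 7 chromatin genes (top) and the 18 tail and metabolism genes (bottom). Grey points are WT libraries, diamonds CNP replicate 1 (orange) and CNP replicate 2 (violet), and asterisks mark an adjusted p under 0.05. CNP replicate 2 lies left of CNP replicate 1 for 23 of the 25 genes.

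The 2 CNP libraries differed in how far these genes fell. Both CNP libraries were below all WT libraries for 9 of the 18 tail genes (background 7.74%). CNP replicate 2 was below them for 15 and CNP replicate 1 for 9, and no share over all genes was taken for single libraries. Without CNP replicate 2, 0 of the 18 were called, although all 18 log2 fold changes stayed below 0 (median -0.41), and 1 of the 7 chromatin genes, Prm2, was called (edgeR, adjusted p = 0.0349). At an unadjusted p under 0.05, 1448 genes passed in that fit. With CNP replicate 2 alone, 13 tail and 5 chromatin genes were called. In each fit with 1 CNP library the spread comes from the 8 WT libraries, and the CNP library is assumed to vary like them. CNP replicate 2 is also the library of shallow barcodes. With barcodes of at least 500 UMIs only, 10 of the 18 tail genes were called, with a median again of -0.80, and 1 of the 7 chromatin genes. Of all 18526 genes tested with these barcodes, 335 were lower.

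Of 24 tested genes of round spermatids and the acrosome, 1 was lower (background 3.55%) and 0 higher (background 1.11%), a share near that of all genes, and the median log2 fold change was -0.12, close to that of all genes. The gene that fell was Spata25, at 82.5 and 73.9 CPM against 97.8 to 146 (log2 fold change -0.75, edgeR, adjusted p = 0.0116). The call was lost without CNP replicate 2, with barcodes of at least 500 UMIs and with the Cul4a and Mlh3 libraries in the fit. The acrosomal membrane gene Spaca1, at 583 and 668 CPM, lay within the WT range of 503 to 748.

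Of 13 tested genes of leptotene and zygotene spermatocytes, 2 were higher (background 1.11%), with a median of 0.63. Both encode proteins of the synaptonemal complex, which holds homologous chromosomes together. Sycp3 stood at 380 and 676 CPM against 219 to 306 (median 244), a log2 fold change of 0.93 ± 0.15 (edgeR, adjusted p = 0.000303). Sycp1 stood at 386 and 418 CPM against 210 to 258 (median 225), a log2 fold change of 0.66 ± 0.13 (edgeR, adjusted p = 0.00165). Neither was called without CNP replicate 2 (edgeR, adjusted p of 0.454 and 0.112), where their log2 fold changes were 0.46 and 0.61. With barcodes of at least 500 UMIs the median of the list was 0.10 and only Sycp3 was called.

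Of 18 pachytene genes, 1 was higher (background 1.11%), with a median log2 fold change of 0.16. This was Pld6, an enzyme of the piRNA pathway, at 55.5 and 92.9 CPM against 32.2 to 52.2 (log2 fold change 0.83, edgeR, adjusted p = 0.0117), and the call was lost without CNP replicate 2 (log2 fold change 0.39, edgeR, adjusted p = 0.833). The most abundant member, the spermatocyte lactate dehydrogenase Ldhc, stood at 7310 and 8952 CPM against 6792 to 8115 and did not pass. Scaled by library totals, 4 of the 18 were called higher.

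Of 16 genes of diplotene and the meiotic divisions, 1 was lower (background 3.55%) and 0 higher, again a share near that of all genes. Ccnb1, cyclin B1, stood at 38.7 and 42.7 CPM against 70.1 to 94.7 (log2 fold change -1.14 ± 0.19, edgeR, adjusted p = 0.000357). Its paralog Ccnb2, cyclin B2, stood at 319 and 358 CPM against 238 to 304 and did not pass. The 3′ end of Ccnb1 matches 5 other annotated genes, and that of Ccnb2 matches none. Of 14 spermatogonial genes, 1 was higher (background 1.11%), Ccnd2 (cyclin D2), at 3.87 and 4.74 CPM against 0 to 1.17 (log2 fold change 2.44, edgeR, adjusted p = 0.041). Ccnd2 was called in 12 of the 26 alternatives, and not without either CNP library or without WT replicate 8 or 11.

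**Figure D4:**
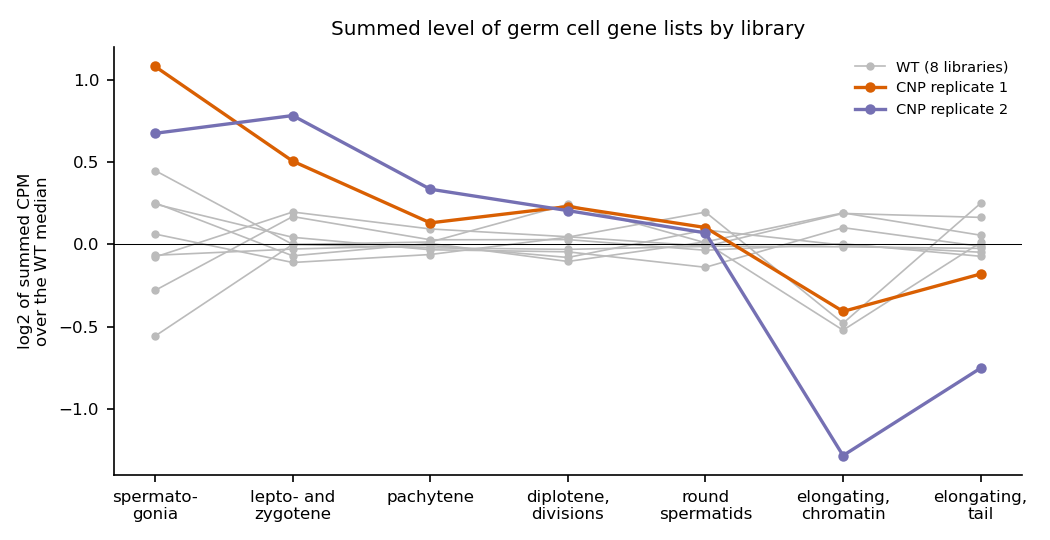
Summed CPM of the 7 fixed germ cell lists, in the order of spermatogenesis, relative to the WT median of each list on a log2 axis, with 1 line per library (WT grey, CNP replicate 1 orange, CNP replicate 2 violet). Both CNP libraries lie above all WT libraries for the first 3 lists and below all of them for the tail list. The sums are on library totals, and with TMM scaling CNP replicate 1 lies within WT for the third list.

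Summed over their lists, spermatogonial genes took 98.0 and 73.9 CPM in CNP against 31.4 to 63.2 in WT. Leptotene and zygotene genes took 1558 and 1888 CPM against 1016 to 1257, and pachytene genes took 26108 and 30093 against 22848 to 25448. The tail genes took 18134 and 12193 CPM against 19539 to 24437. After TMM scaling, both CNP libraries still lay above WT for the first 2 of these lists and below it for the tail genes. For the spermatogonial list the scaled sum of CNP replicate 2, 67.6, was barely above the highest WT sum, 65.8. The scaled pachytene sum of CNP replicate 1, 24031, then lay within the WT range of 23041 to 26020. The sums of diplotene and the meiotic divisions, 2676 and 2630 CPM, lay within that of WT on library totals (2123 to 2701).

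Other germ cell genes were among the 12 increases with the smallest adjusted p, chosen in abundant genes whose groups did not overlap. Tex101, a surface protein of germ cells needed for sperm to migrate into the oviduct, stood at 334 and 371 CPM against 107 to 157 (median 133), a log2 fold change of 1.26 ± 0.14 (edgeR, adjusted p = 4.28e-07). It was called in all 26 alternatives. Dazl, an RNA-binding protein of spermatogonia and spermatocytes, stood at 132 and 178 CPM against 46.0 to 85.8 (log2 fold change 1.13, edgeR, adjusted p = 0.000161). Tex101 and Dazl were above the WT range in the Cul4a and Mlh3 libraries too, at 207 to 367 and 117 to 272 CPM.

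The remaining genes of this group were H2afx (96.7 and 100.5 CPM against 35.0 to 55.9), the histone that marks DNA breaks, Tsn, which encodes translin, Adprh, an ADP-ribosyl hydrolase gene whose 3′ end matches 103 other genes, and 1700102P08Rik. Their log2 fold changes were 0.97, 1.07, 1.02 and 0.90. CNP replicate 2 was the higher library for all 4, and without it none was called (edgeR, adjusted p of 0.0816, 0.715, 0.553 and 0.764), with log2 fold changes of 0.95, 0.45, 0.54 and 0.31.

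Among the somatic cells, a few genes of Leydig cells, which make androgens, were higher. Of 9 Leydig cell genes, 3 were higher (background 1.11%) and 0 lower, with a median log2 fold change of 0.94 that turned to -0.13 without CNP replicate 2. Their sum was 175 CPM in CNP replicate 1, within the WT range of 109 to 324, and 426 in CNP replicate 2. Cyp11a1, which cleaves the side chain of cholesterol, stood at 18.1 and 66.4 CPM against 3.62 to 13.5 (log2 fold change 2.24 ± 0.37, edgeR, adjusted p = 0.000359). Cyp17a1, the next cytochrome P450 of androgen synthesis, stood at 55.5 and 130 CPM against 15.4 to 68.4 (log2 fold change 1.24, edgeR, adjusted p = 0.0338), and Fabp3, a fatty acid binding protein, at 29.7 and 64.5 against 6.60 to 31.7 (log2 fold change 1.53, edgeR, adjusted p = 0.0111). The Leydig hormone Insl3 went the other way without passing, at 7.74 and 7.58 CPM against 7.24 to 40.3. In some alternatives 1 of the 9 genes was called lower. These were no filter on low counts, leaving out WT replicate 9 or 10, counts thinned to the shallowest library, and WT mice of 3 to 4 months only. None of the 9 was called without CNP replicate 2 or with barcodes of at least 500 UMIs only, and 1 was called by DESeq2.

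Of 14 Sertoli cell genes, 1 was higher (background 1.11%), the lysosomal protease Ctsl, at 65.8 and 198 CPM against 48.4 to 94.7 (log2 fold change 0.87, edgeR, adjusted p = 0.0415). In CNP replicate 1 it lay within the WT range, and without CNP replicate 2 its log2 fold change was -0.16. Ctsl was called in 14 of the 26 alternatives, and not without WT replicate 6, 7, 8, 9 or 11. Lcn2, an iron-binding lipocalin of innate immunity, stood at 110 and 230 CPM against 23.5 to 59.9 (median 33.3), with a log2 fold change of 1.98 ± 0.27 (edgeR, adjusted p = 2.04e-05). It missed the threshold without CNP replicate 2 (log2 fold change 1.34, edgeR, adjusted p = 0.189). Lcn2 stood at 80.7 to 115 CPM in Cul4a and at 595 to 3092 in Mlh3 libraries.

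No member of the lists for macrophages (11 tested), T lymphocytes (6), telocytes and interstitial matrix (12), peritubular myoid cells (6), endothelial cells (5), red blood cells (5), oligodendrocytes (7), the intercellular bridge (9) or p53 targets and apoptosis (17) was called. Summed over their lists, macrophage genes took 58.0 and 112 CPM in CNP against 55.5 to 110 in WT, and T lymphocyte genes 11.6 and 16.1 against 14.4 to 35.5. The oligodendrocyte sum of 58.0 and 83.4 CPM against 45.4 to 55.2 was mostly Mag, at 37.4 and 71.1 CPM against 33.2 to 43.0. After TMM scaling, the oligodendrocyte sum of CNP replicate 1, 53.4, lay within the WT range of 46.3 to 56.4. That of CNP replicate 2, 76.3, lay above it. The defining oligodendrocyte genes Mog and Olig2 did not reach 5 UMIs.

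The decreases with the smallest adjusted p were in ribosomal protein genes. Of 82 tested genes of cytoplasmic ribosomal proteins, 61 were lower (background 3.55%) and 0 higher, with a median log2 fold change of -2.13. The groups did not overlap for 58 of them, all lower in CNP (background 7.74%). Of the 12 decreases with the smallest adjusted p among abundant genes whose groups did not overlap, 11 were ribosomal protein genes and the other was Impdh2, an enzyme of guanine nucleotide synthesis.

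Rps7 stood at 12.9 and 11.4 CPM in CNP and 297 to 428 (median 366) in WT, a log2 fold change of -5.05 ± 0.24 (edgeR, adjusted p = 9.51e-14). Rpl11 stood at 10.3 and 2.84 CPM against 287 to 388, with a log2 fold change of -5.86 ± 0.29 (edgeR, adjusted p = 1.71e-13). Rps27 and Rpl28 had 0 UMIs in both CNP libraries. Against the limit of 3 UMIs over the group, Rps27 was at least 93.3-fold lower and Rpl28 at least 45.9-fold lower than in WT, where their medians were 148 and 75.1 CPM. With 1 UMI in all, Rpl12 was 242-fold lower (95% interval 43.4 to 9568, exact, counting error only).

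The change was uneven within 1 set of proteins that the ribosome holds in equal number. Rps3 stood at 132 and 194 CPM against 109 to 164, with a log2 fold change of 0.098 (edgeR, adjusted p = 0.787). Rpl4 (353 and 425 CPM against 272 to 429) and the testis-specific Rpl39l (480 and 683 against 351 to 629) did not pass either. In all, 40 of the 82 were called with a decrease of at least 4-fold, and 11 had a log2 fold change above -0.30. With the 6 genes at 0 in both CNP libraries set to their bound, the median was -1.84.

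A property of the annotation moved with this. For each gene, the last 300 bases of its transcripts were compared with all other annotated transcripts. A match of at least 95% identity over at least 100 bases in a gene elsewhere counted as a near-identical copy. Repeats shared between genes were not masked and can count as copies too. Among protein-coding genes with a mean of at least 20 CPM, 369 of 5093 without such a copy were lower in CNP (7.25%). With 1 copy this was 49 of 245 (20%), with 2 to 4 copies 45 of 121 (37.2%) and with 5 or more 60 of 142 (42.3%). The share that was higher ran from 2.32% without a copy to 0.704% with 5 or more.

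The difference between genes with and without a copy was not limited to ribosomal proteins. Without them, 22.9% of the 446 genes with a copy were lower against 7.13% of the 5080 without. Of the ribosomal protein genes, 54 of the 69 with a copy were lower, with a median log2 fold change of -2.33 over the 69. Of the 13 without, 7 were lower, Rpl12 and Rps23 among them, with a median of -0.66 over the 13. Copies that are not annotated as transcripts would not be seen by this comparison. Reads that match 2 places equally well are dropped or placed by the aligner's settings, and whether this took part in the result was not tested.

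**Figure D5:**
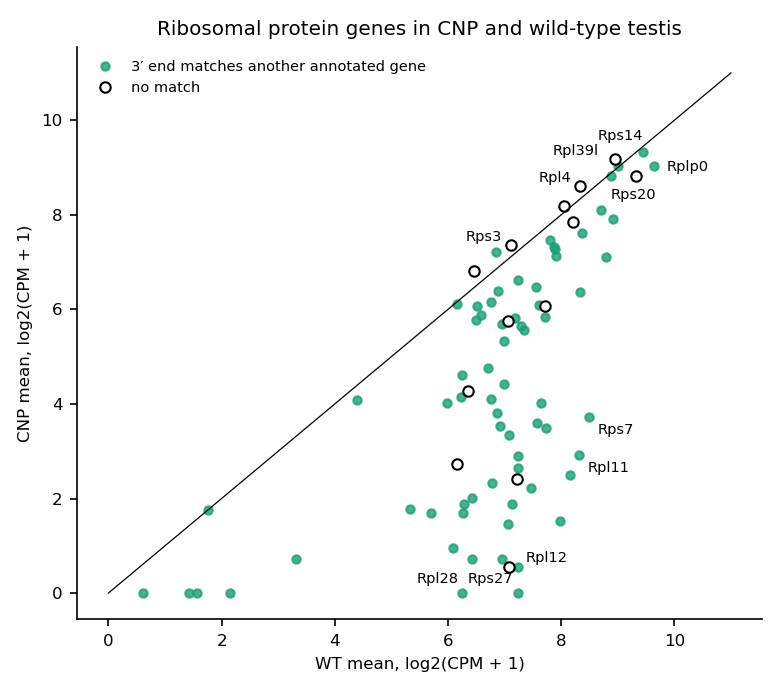
Mean level of each of 82 ribosomal protein genes in WT (x axis) and CNP (y axis) as log2(CPM + 1), with the line of equal values. Green points have a near-identical copy at their 3′ end and open points have none. Most genes lie far below the line, Rps27 and Rpl28 at 0, while Rps3, Rpl4 and Rpl39l lie on or just above it.

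Other abundant genes were lower too. Hsp90aa1, the inducible HSP90 chaperone that is abundant in spermatocytes, stood at 325 and 395 CPM against 1235 to 1714, a log2 fold change of -2.14 ± 0.15 (edgeR, adjusted p = 6.72e-11). Its 3′ end matches 2 other genes. Of 15 tested genes of the heat shock list, 2 were lower (background 3.55%) and 0 higher, and of the 11 without such a copy 0 were lower, which is near the share of all genes. Its paralog Hsp90ab1 stood at 297 and 326 CPM against 237 to 281 and did not pass. Eif1, a factor of start codon selection, stood at 126 and 191 CPM against 512 to 951 (log2 fold change -2.30, edgeR, adjusted p = 6.72e-09), and it has 12 copies. Tpt1, which encodes the translationally controlled tumor protein and has no such copy, stood at 15.5 and 9.48 CPM against 207 to 477 (log2 fold change -4.77, edgeR, adjusted p = 1.4e-10). A further list held genes, 8 of them ribosomal, taken from the study's account of components that followed sequencing batches. Of its 17 tested members, 11 were lower (background 3.55%) and 2 higher (background 1.11%), with a median log2 fold change of -4.57. With barcodes of at least 200 UMIs and 50 genes, or with the Cul4a and Mlh3 libraries in the fit, 11 were lower and 0 higher. Fitted with genes without a near-identical copy only, 2 of its 8 members were lower and 2 higher, with a median of -0.18. The study chose that list on these libraries, so it is not independent of the direction.

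The calls on ribosomal protein genes did not rest on 1 CNP library. Without CNP replicate 2, 43 of the 82 ribosomal protein genes were still lower, and without CNP replicate 1, 50. Of the 122 genes called without CNP replicate 2, 119 had a known 3′ end, and 86 of these (72.3%) had a copy, against 13.1% of all genes tested. Ribosomal protein genes took 0.669% and 0.816% of the UMIs in CNP, 1.19% to 1.72% in WT, 3.34% in WT replicate 3 and 2.36% to 3.48% in the Cul4a and HiSeq Mlh3 libraries, so this share also differed between libraries other than CNP.

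The sex chromosomes are silenced in spermatocytes and partly active again in spermatids. Their genes were called lower about as often as all genes, and X-linked genes were called higher less often. Of 819 tested X-linked genes, 24 were lower (background 3.55%) and 1 higher (background 1.11%). Their median log2 fold change was -0.32 against -0.10 over all genes. X-linked genes took 1.02% and 0.873% of the nuclear UMIs in CNP against 1.07% to 1.21% in WT (means of 0.944 and 1.12, two-sided exact permutation test over 45 splits, p = 0.0222, adjusted p = 0.0296). Setting X-linked genes at 0 in both CNP libraries to their bound, an upper limit, turned the median to 0.13. With edgeR's stricter filter on low counts, the median of the 348 X-linked genes left was -0.22, against 0.014 over all genes tested. Without CNP replicate 2 only 1 X-linked gene was lower, and with barcodes of at least 500 UMIs 10 were. Of the 587 without a near-identical copy, 13 were lower, with a median of -0.13.

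Among those that passed in the fit of all libraries were H2afb1, a histone variant of spermatids (311 and 271 CPM against 345 to 622, log2 fold change -0.95, edgeR, adjusted p = 0.00394), and Akap4, the main protein of the fibrous sheath (733 and 357 against 694 to 1142, log2 fold change -0.81, edgeR, adjusted p = 0.014). Of 43 Y-linked genes 1 was lower (background 3.55%), Gm20837, a member of a multicopy family, which was called in 6 of the 26 alternatives and in none without a CNP library. Of the 7 without a copy, 0 were lower, with a median of -0.065 against -1.30 for the 43. The X-linked increase was Timp1, an inhibitor of metalloproteases, named after its value was seen. It was not called by DESeq2, with edgeR's stricter filter on low counts or without CNP replicate 2. Nor was it called with barcodes of at least 500 UMIs or with the Cul4a and Mlh3 libraries in the fit.

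Of 23 tested genes encoded in the mitochondria, 2 were higher (background 1.11%) and 0 lower (background 3.55%). The median log2 fold change was -1.35. It was 0.094 with the 11 genes at 0 in both CNP libraries set to their bound, an upper limit. With edgeR's stricter filter on low counts, 13 genes were left, with a median of -0.33. The cytochrome b gene mt-Cytb stood at 537 and 602 CPM against 298 to 423 (log2 fold change 0.55, edgeR, adjusted p = 0.00976), and the 12S ribosomal RNA gene mt-Rnr1 at 183 and 143 against 48.7 to 107 (log2 fold change 0.78, edgeR, adjusted p = 0.018). The share of mitochondrial UMIs, 1.13% and 1.58% in CNP, lay within the WT range of 0.963% to 1.72% (exact permutation test, p = 0.644, adjusted p = 0.644). Neither gene was called without CNP replicate 2.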

How the data were processed

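Whole testis was profiled by Drop-seq. Per the labels the genome was mm10 (GRCm38) and the aligner STAR 2.5.3a, and the deposited counts are whole numbers of UMIs per gene and barcode, made by the authors and not normalized. Counts were summed over all barcodes of a library. No doublet caller was run and no barcode was removed, so doublets are part of the sums. Genes with at least 5 UMIs over the 10 libraries were tested with edgeR 4.0.16 (R 4.3.3), TMM scaling, the quasi-likelihood test and Benjamini-Hochberg adjustment at 0.05. Values of whole libraries were compared with exact permutation tests (scipy 1.17.1). Simulated data with known changes gave back 86% of 100 genes at a log2 fold of 1 and all 100 at a log2 fold of 2, with 10 false calls among 18553 genes. The changed genes were drawn from those of at least 20 CPM, and both CNP libraries were given the same change. The recovery thus does not cover genes of lower level or changes that differ between the CNP libraries.

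The labels say nothing of separate cultures or preparations within a group. Members and gene lists were chosen with earlier results of these data known. Named genes were Cnp, Rpl10a and tested genes within 250 kb of Cnp. To these came the 12 genes with the smallest adjusted p in each direction among those called, with groups that did not overlap and at least 20 CPM in the higher group. In each list, the 3 most abundant members and up to 5 called members were named. Rps3, Rpl4, Rpl39l, Rpl28, Rps27, Tpt1, Hsp90ab1, Timp1 and the genes of the closing observations were named after their values were seen. Near-identical copies were found with blastn 2.17.0, a comparison chosen after seeing the data. Alternatives changed scaling, gene filter, tool, barcodes and libraries used. Of 28530 gene symbols, 26165 matched GENCODE directly, 870 matched by a synonym and 1495 had no match. A few genes are left out of the text and not reported here.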

Additional observations from a re-analysis of the deposited data

Results flagged for a closer look

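Of 144 named genes or values, 11 had 1 WT library far from the other 7 by Dixon's criterion, where chance gives about 1 in 20. WT replicate 5 was that library for 6 of them. It was highest for Clu (176 CPM, the next 106), Dcn (56.1, the next 16.0), Gsn (33.5), Lyz2 (16.1), Nkiras2 (143, the next 121) and Pld6 (52.2). Dcn and Gsn are genes of interstitial and matrix cells, Clu of Sertoli cells and Lyz2 of macrophages. WT replicate 4 was highest for Dhx58 (68.3 CPM), Rpl9 (172) and Tbpl1 (999). WT replicate 10 was highest for Hbb-bs (59.3 CPM), a hemoglobin gene, and lowest for Alas2 (0.452 CPM), an enzyme of heme synthesis. Without WT replicate 5, 926 genes were called, among them 832 of the 890.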

How the results depend on the processing

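Single libraries decided much of the result. Leaving out 1 library at a time gave 122 to 1100 genes called, 43 to 64 ribosomal protein genes lower, 0 to 13 tail genes lower and 3 or 4 genes higher near Cnp, with the lowest count of all genes and of tail genes without CNP replicate 2. Barcodes of at least 500 UMIs gave 372 genes called, and adding the Cul4a and Mlh3 libraries to the fit gave 457. Restricted to genes without a near-identical copy, an alternative chosen after seeing the data, 7 of the 13 ribosomal protein genes tested were lower. Of all 15956 genes tested in that fit, 443 were lower. With that restriction and without CNP replicate 2, 20 genes, 4 ribosomal protein genes and 0 tail genes were called. The cause was not tested, apart from the smaller number of genes in the restricted fits. The log2 fold change of Ctsl turned from 0.87 to -0.16 without CNP replicate 2 (1.45 without CNP replicate 1), -0.29 with barcodes of at least 500 UMIs and -0.18 under the last restriction.

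The percent mitochondrially encoded, CNP minus WT, was 0.106 and turned to -0.0890 with barcodes of at least 200 UMIs and 50 genes. Without 1 CNP library it ran from -0.118 to 0.331. In the same way the median UMIs per barcode, CNP minus WT, ran from -374 to -202, the median genes per barcode, CNP minus WT, from -282 to -144, and the percent X-linked, CNP minus WT, from -0.249 to -0.106, where 1 CNP library cannot reach p = 0.05 in the exact permutation test. Of 65 named genes that were called, 37 lost the call without CNP replicate 2, 20 with barcodes of at least 500 UMIs, 16 with the Cul4a and Mlh3 libraries in the fit and 8 by DESeq2. No paired analysis was possible because the CNP and WT libraries share no replicate numbers. The CNP libraries' depth limits genes under a few CPM.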

Other observations

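A few genes of low level that belong to none of the lists were higher in CNP, and were picked after their values were seen. Both CNP libraries lay above all WT libraries for 11.2% of all genes tested. Crabp1, a retinoic acid binding protein, stood at 14.2 and 6.64 CPM against 0 to 2.87 in WT (log2 fold change 3.03, edgeR, adjusted p = 0.0108). Lrg1, a secreted glycoprotein, stood at 6.45 and 19.9 CPM against 0.261 to 3.16 (log2 fold change 3.59, edgeR, adjusted p = 0.00031). Igfbp2, which binds insulin-like growth factors, stood at 3.87 and 11.4 CPM against 0.725 to 2.09 (log2 fold change 2.46, edgeR, adjusted p = 0.00487). Cpe, a carboxypeptidase that processes peptide hormones, stood at 16.8 and 44.6 CPM against 5.43 to 12.2 (log2 fold change 1.70, edgeR, adjusted p = 0.00138). The groups did not overlap for any of the 4, and none was called without CNP replicate 2.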
